A study of Mus musculus with 6 samples.

Results

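The genes described here are the histone genes of the 4 mouse histone clusters, taken as every row of the deposited table whose symbol begins with Hist1h, Hist2h, Hist3h or Hist4h and that held a nonzero value in at least 1 library. They numbered 60 of the 20129 genes of the table. By cluster, 49 belonged to Hist1 on chromosome 13, 7 to Hist2 on chromosome 3, 3 to Hist3 on chromosome 11 and 1 (Hist4h4) to Hist4 on chromosome 6. By class, 6 encode linker histone H1, 14 H2A, 16 H2B, 11 H3 and 13 H4, counting 2 that RefSeq lists as pseudogenes, Hist1h2al and Hist3h2bb-ps. Live CD45+ CD11b+ cells, labelled as microglia, were isolated from brain at an age of 5 months from mice labelled with the strain C57BL6/J. The 3 5xFAD libraries (replicates 4, 5 and 6) came from mice with the 5xFAD transgenes, which are driven by the neuronal Thy1 promoter and lead to amyloid plaques. The 3 Il3-/-5xFAD libraries (replicates 1, 2 and 3) came from mice with the same transgenes that lack interleukin-3, so the amyloid model is shared by both groups and no mice without the transgenes were measured. Each library was a pool of 2 male and 2 female mice, and p-values measured the spread between pools.

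Most clustered histone genes are replication-dependent: they are transcribed in S phase, have no introns, and their mRNAs end just after a conserved stem-loop in place of a polyA tail. The stem-loop-binding protein holds that structure, and the mRNAs are degraded when DNA synthesis ends. Some clustered genes can also give mRNAs that run past the stem-loop to a polyA signal, a form known from differentiated cells, and most microglia in the adult brain are not dividing. The libraries were made with a polyA-selecting directional kit, so a histone mRNA without a tail is largely lost and the values below are no measure of total histone mRNA.

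The stem-loop was searched as the first thing the clusters share, as GGNNNTTTNNANNNCC on the transcript strand with the first 6 bases pairing with the last 6. Of the 60 genes, 39 (65.0%) held it in their longest GENCODE transcript, against 0.145% of 18606 protein-coding genes outside the set. The same element is shown for Hist3h2a, Hist1h1c, Hist1h3d, Hist1h2bg and Hist1h4i, and for Hist1h4h, whose annotated transcript stops soon after it. No match was found in the transcript of Hist1h2bc, at a mean of 98.6 CPM the most abundant member after Hist1h1c. Capitals mark the stem-loop, as DNA, 5′ to 3′, read from GENCODE M21 transcripts.
Hist3h2a: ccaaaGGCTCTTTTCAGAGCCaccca
Hist1h1c: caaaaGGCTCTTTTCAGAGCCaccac
Hist1h3d: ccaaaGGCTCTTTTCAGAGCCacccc
Hist1h2bg: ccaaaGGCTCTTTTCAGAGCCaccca
Hist1h4i: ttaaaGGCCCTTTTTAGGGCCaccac
Hist1h4h: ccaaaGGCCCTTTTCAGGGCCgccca
The form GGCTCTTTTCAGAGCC was found in 21 genes, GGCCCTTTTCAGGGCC in 7, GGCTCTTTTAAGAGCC in 6, and the other 3 forms in 2, 2 and 1. The 21 genes without a match include transcripts annotated as little more than the coding sequence, so the absence says only that these letters are not in the annotated transcript.

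What followed the stem-loop differed between members. The annotated transcript went on for at least 100 bases after it in 22 genes, among them Hist1h1c (840 bases), Hist3h2a (1643 bases), Hist1h3d (752 bases), Hist1h4i (330 bases) and Hist1h2bg (155 bases). It ended within 100 bases in 17 genes, among them Hist1h4h (46 bases), Hist1h2ad (42 bases) and Hist1h3a (37 bases). The value of 100 bases was set after the annotation had been seen; the nearest genes on either side were Hist1h3c (74 bases) and Hist1h2ae (151 bases). Per kilobase of GENCODE transcript, the median level was 1.35 CPM in the 22 genes with a longer annotated end. It was 0.548 CPM in the 17 with a short one and 0.297 CPM in the 21 with no stem-loop found. The annotation used for counting is not stated, so the counted lengths may differ from these. CPM scales each library to a sum of 1000000 reads. The groups overlapped widely, from 0.0593 to 429 CPM per kilobase in the first and from 0.0598 to 5.12 in the second. The third ran from 0.00901 to 85.3, the highest being Hist1h2bc. The 22 genes held 85.5% to 88.3% of all histone cluster CPM in a library, the 17 held 0.585% to 1.19% and the 21 held 11.1% to 13.3%. Most of the share of the 22 was Hist1h1c, which alone gave 72.8% to 78.5%, so these shares do not describe the 22 as a group. Nor do they describe the 21, whose share was nearly all Hist1h2bc. It gave 82.4, 98.9 and 67.3 of their 88.6, 109 and 73.7 CPM in 5xFAD replicates 4, 5 and 6. In Il3-/-5xFAD replicates 1, 2 and 3 it gave 112, 132 and 97.9 of 122, 140 and 102 CPM. The deposited values give no position along a gene, so whether reads lay past the stem-loop was not tested.

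**Figure D1:**
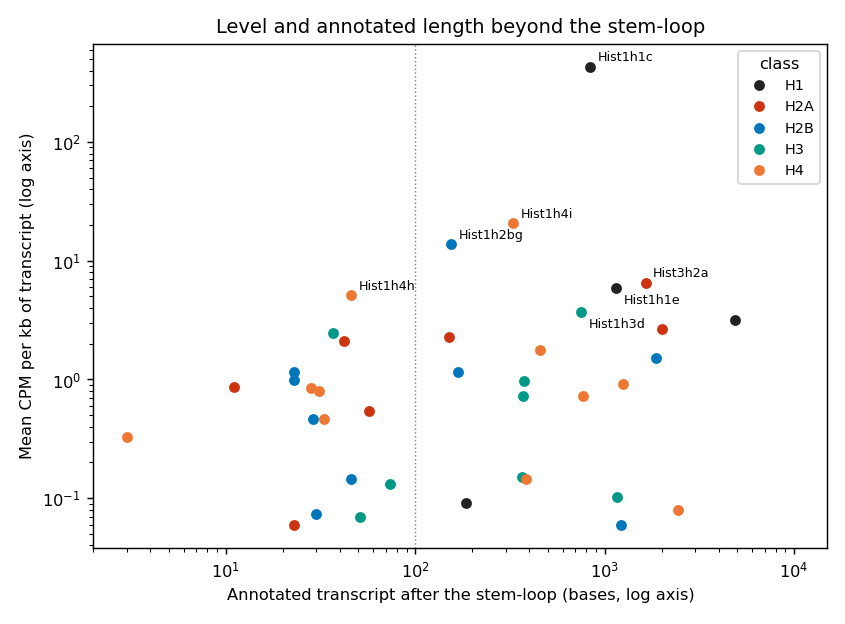
Mean level over 6 libraries (CPM per kilobase of the longest GENCODE transcript, log axis) against the length annotated after the stem-loop (bases, log axis), 1 point for each of the 39 genes with a stem-loop, coloured by class. The dotted line is at 100 bases, and 7 genes are named, from Hist1h3d at 3.72 to Hist1h1c at 429 CPM per kilobase; transcript length enters both axes.

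Few of the 60 genes were well measured. Only 19 reached 1 CPM in 3 or more of the 6 libraries and were tested, and 12 of these reached 1 CPM in every library. The last gene inside this filter was Hist1h4d, whose third-highest library was at 1.01 CPM, and the first outside was Hist1h1a at 0.923 CPM. The 41 genes outside it together gave 6.51, 11.2 and 3.40 CPM in 5xFAD replicates 4, 5 and 6 and 11.5, 11.8 and 4.30 CPM in Il3-/-5xFAD replicates 1, 2 and 3, ranges that overlap. Of the 60 genes, 39, 53 and 39 had a read in the 5xFAD libraries and 51, 49 and 30 in the Il3-/-5xFAD libraries. Il3-/-5xFAD replicate 3, with the fewest, also had the fewest genes with a read in the whole table (14435, against 15740 to 17245 in the other libraries), at a total of 32988688 reads. The totals of the libraries ran from 27970850 to 37605490 reads, so that 0 reads allow up to 0.0798 to 0.107 CPM, for counting error only.

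Hist1h1c outweighed all other members. This gene, which encodes the linker histone H1.2, measured 603, 616 and 475 CPM in the 5xFAD libraries against 672, 928 and 719 CPM in the Il3-/-5xFAD libraries. It gave 72.8% to 78.5% of the histone cluster CPM of a library. Per kilobase of GENCODE transcript it was first at 429 CPM, followed by Hist1h2bc at 85.3, Hist1h4i at 20.7, Hist1h2bg at 13.8 and Hist3h2a at 6.55. Divided by the RefSeq gene length, Hist1h1c stood at 923 CPM per kilobase and was first again. Hist1h2bc stood at 11.9, but its RefSeq gene spans 8282 bases against 1156 bases of GENCODE transcript. The RefSeq length is a span along the genome, so this second scaling is no level per kilobase of transcript.

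The comparison asked whether the sorted CD45+ CD11b+ cells of the amyloid model carried other levels of histone mRNA when IL-3 was absent. Of the 19 tested genes, 1 rose in Il3-/-5xFAD (Hist3h2a), none fell and 18 did not pass, by limma on log2(CPM + 1) with an adjusted p under 0.05 over all 11900 tested genes. Over all tested genes 0.882% were called, 0.252% higher and 0.630% lower. An unadjusted p under 0.05 was reached by 6 of the 19 and by 16.5% of all tested genes; edgeR with TMM factors called 1 of the 19 (0.504% of all tested genes, 0.210% higher) and DESeq2 called 4, all higher (5.09% of all tested genes, 1.63% higher). The median log2 difference of the 19 was 0.42, from -0.29 to 1.34, beside 0.00 over all tested genes, and 15 of the 19 lay above 0 beside 49.9% of all tested genes. In 6 of the 19 every Il3-/-5xFAD library lay above every 5xFAD library, which held for 9.65% of all tested genes, and none lay wholly below, which held for 11.5%. Fitted without the filter, 32 of the 60 genes lay above 0, beside 47.7% of all genes. Summed over the 60 genes, the level was 780, 824 and 611 CPM in 5xFAD and 924, 1220 and 917 CPM in Il3-/-5xFAD, 1.38 times as high in the mean and without overlap, a sum that Hist1h1c dominates. Without Hist1h1c the sums were 177, 207 and 136 CPM against 251, 292 and 197 CPM, and the groups overlapped.

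**Figure D2:**
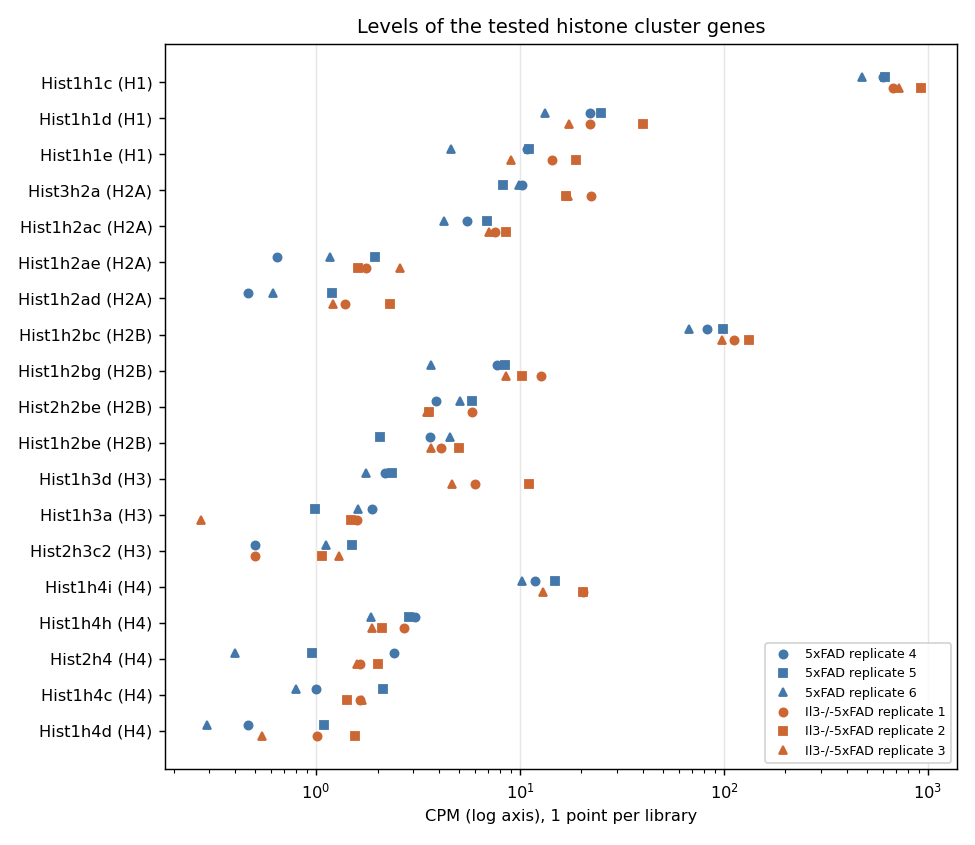
CPM of the 19 tested histone cluster genes (log axis), ordered by class, 1 point per library, blue for 5xFAD and orange for Il3-/-5xFAD. Hist1h1c stands at 475 to 928 CPM; the groups do not overlap in Hist1h1c, Hist3h2a, Hist1h2ac, Hist1h2ad, Hist1h2bg and Hist1h3d.

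The same libraries tended to be low or high across members. Among the 5xFAD libraries, replicate 6 was the lowest in 12 of the 19 tested genes and replicate 5 the highest in 14. Among the Il3-/-5xFAD libraries, replicate 3 was the lowest in 14 and replicate 2 the highest in 10. The members are therefore not independent of each other, and a count over them rests on 6 libraries. The median log2 difference was 0.27 with 5xFAD replicate 6 left out and 0.31 with Il3-/-5xFAD replicate 2 left out, against 0.42 with all libraries.

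The H2A genes held the only call. Hist3h2a, an H2A gene of the small Hist3 cluster, measured 10.2, 8.20 and 9.89 CPM in 5xFAD against 22.2, 16.7 and 17.1 CPM in Il3-/-5xFAD. All 3 Il3-/-5xFAD libraries lay above all 3 5xFAD libraries, with means of 9.43 ± 1.07 and 18.7 ± 3.06 CPM (SD, n = 3). On the log2 scale the groups differed by 0.91 ± 0.17 (SE; limma adjusted p = 0.0341, edgeR adjusted p = 0.0389). The call was lost when replicate 5 or 6 of 5xFAD, or replicate 1 or 2 of Il3-/-5xFAD, was left out (limma adjusted p of 0.134, 0.176, 0.0835 and 0.0674), while the difference stayed between 0.79 and 0.98 without any 1 of the 6 libraries.

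The value of Hist3h2a touches a neighbouring gene. In GENCODE its transcript overlaps Trim17, a ubiquitin ligase gene, on the same strand, and 31.5% of its stretches of 50 bases occur in transcripts of other genes, Trim17 first. Trim17 had 8, 8 and 0 reads in 5xFAD and 19, 17 and 25 reads in Il3-/-5xFAD, against 240 to 372 and 471 to 661 reads of Hist3h2a. How the counting assigned reads shared by both is not given in the sources used here, so the value of Hist3h2a alone is uncertain.

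The other Hist3 genes were low. Hist3h2ba, the H2B gene of the cluster, measured 0.465, 0.478 and 0.239 CPM in 5xFAD against 1.44, 1.42 and 0.243 CPM in Il3-/-5xFAD, where replicate 3 lay within the 5xFAD range. Hist3h2bb-ps, a pseudogene that faces Hist3h2a head to head with 173 bases between the starts, had 0, 5 and 0 reads in 5xFAD and 7, 16 and 8 reads in Il3-/-5xFAD, without overlap. Both were below the filter and were not tested.

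Hist3h2a lies on chromosome 11, as Il3 does, with 34 tested genes between them in RefSeq order, of which 4 rose and 2 fell. Over all tested genes 0.252% were called higher and 0.630% lower. Whether any of the 34 entered the test through the libraries of 1 genotype only was not examined. Il3 itself had 54, 61 and 29 reads in 5xFAD and none in any Il3-/-5xFAD library. Among the 5 tested genes on either side of Hist3h2a, 1 passed: 2610507I01Rik, an unnamed transcript, at 0.0715, 0 and 0 CPM in 5xFAD and 5.98, 5.50 and 5.49 CPM in Il3-/-5xFAD. It entered the test only through the Il3-/-5xFAD libraries, where it is high, so its limma adjusted p of 0.000422 rests on a gene that had to differ. Guk1, a guanylate kinase gene, was lower in every Il3-/-5xFAD library without passing (log2 difference -0.63 ± 0.16 (SE), limma adjusted p = 0.0755), and A230051G13Rik was higher in every one without passing (0.59 ± 0.19, limma adjusted p = 0.139). The nearest tested genes, Rnf187 and Trim11, differed by 0.06 ± 0.09 and 0.14 ± 0.11. In this design the loss of Il3 and any other difference in the DNA inherited with the Il3 allele cannot be told apart.

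**Figure D3:**
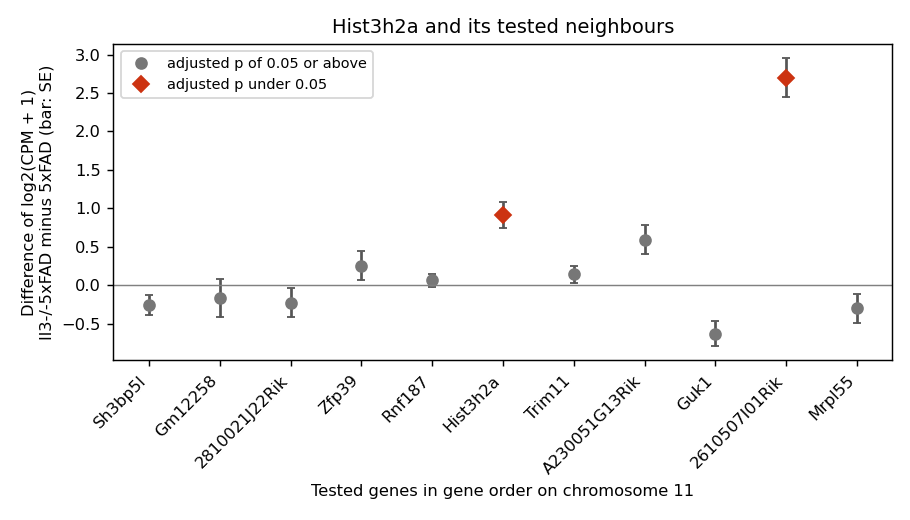
Difference of log2(CPM + 1), Il3-/-5xFAD minus 5xFAD, for Hist3h2a and the 5 tested genes on either side in gene order on chromosome 11, with SE bars; red diamonds mark an adjusted p under 0.05. Hist3h2a (0.91) and 2610507I01Rik (2.70) stand above 0, and Guk1 (-0.63) is the lowest.

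The other tested H2A genes came from the Hist1 cluster and did not pass. Hist1h2ac was at 5.51, 6.90 and 4.25 CPM in 5xFAD and 7.56, 8.49 and 7.03 CPM in Il3-/-5xFAD, without overlap (log2 difference 0.42 ± 0.21 (SE), limma adjusted p = 0.343). Hist1h2ae was at 0.644, 1.95 and 1.17 CPM against 1.75, 1.60 and 2.58 CPM, with overlap. Hist1h2ad was at 0.465, 1.20 and 0.612 CPM against 1.38, 2.31 and 1.21 CPM, where the groups nearly touched. Differences of Hist1h2ae and Hist1h2ad were 0.43 ± 0.30 and 0.58 ± 0.30, at limma adjusted p of 0.517 and 0.366. Near-identical copies limit Hist1h2ad most, since 67.1% of its stretches of 50 bases occur in other transcripts. The sum over the 14 H2A genes was 17.5, 20.7 and 16.4 CPM in 5xFAD and 35.0, 30.1 and 28.6 CPM in Il3-/-5xFAD, 1.72 times as high and without overlap. Without Hist3h2a the other 13 gave 7.29, 12.5 and 6.46 CPM against 12.8, 13.4 and 11.5 CPM, and the groups overlapped.

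None of the 3 tested H1 genes passed in limma. H1 binds the linker DNA between nucleosomes. Hist1h1c, with the values given above, had means of 565 ± 77.8 and 773 ± 136 CPM (SD, n = 3), without overlap, and differed on the log2 scale by 0.45 ± 0.13 (SE; limma adjusted p = 0.110, edgeR adjusted p = 0.153, DESeq2 adjusted p = 0.0187). Without single libraries its difference ran from 0.31 to 0.54. Hist1h1d (H1.3) was at 22.1, 24.8 and 13.3 CPM in 5xFAD and 22.1, 40.2 and 17.4 CPM in Il3-/-5xFAD, with wide overlap (0.35 ± 0.28, limma adjusted p = 0.582). Hist1h1e (H1.4) was at 10.8, 11.1 and 4.57 CPM against 14.3, 18.7 and 9.0 CPM, where Il3-/-5xFAD replicate 3 lay below 2 of the 5xFAD libraries (0.64 ± 0.31, limma adjusted p = 0.334). Its GENCODE span overlaps Hist1h2be on the same strand. At an unadjusted p under 0.05 stood 1 of the 3, and edgeR called 0 and DESeq2 called 1.

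None of the 4 tested H2B genes passed in limma (2 at an unadjusted p under 0.05; 0 called by edgeR and 1 by DESeq2). H2B pairs with H2A in the nucleosome core. Hist1h2bc was at 82.4, 98.9 and 67.3 CPM in 5xFAD and 112, 132 and 97.9 CPM in Il3-/-5xFAD. The groups overlapped by a narrow margin, as the highest 5xFAD library stood just above the lowest Il3-/-5xFAD library (log2 difference 0.46 ± 0.14 (SE), limma adjusted p = 0.121, DESeq2 adjusted p = 0.0400). Hist1h2bg was at 7.69, 8.44 and 3.64 CPM against 12.7, 10.2 and 8.49 CPM, again nearly touching but without overlap (0.64 ± 0.27, limma adjusted p = 0.253). Hist1h2be was at 3.61, 2.05 and 4.52 CPM against 4.10, 5.01 and 3.67 CPM, with overlap (0.29 ± 0.26, limma adjusted p = 0.627). Hist2h2be, an H2B gene of the Hist2 cluster in whose transcript no stem-loop was found, was at 3.86, 5.84 and 5.08 CPM against 5.84, 3.59 and 3.49 CPM (-0.17 ± 0.24, limma adjusted p = 0.775), where 2 of the 3 Il3-/-5xFAD libraries were the lowest of all 6.

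H2A and H2B genes of the clusters often stand head to head, and 10 such pairs were found with at most 500 bases between the GENCODE starts. Each of the 10 joined an H2A with an H2B gene. In the pair of Hist1h2ac and Hist1h2bc, with 251 bases between the starts, the difference was 0.42 and 0.46. In that of Hist1h2ae and Hist1h2bg, with 176 bases, it was 0.43 and 0.64. The partner of Hist1h2ad, Hist1h2bf, was below the filter at 0, 0.752 and 0 CPM in 5xFAD and 0.0672, 0.462 and 0 CPM in Il3-/-5xFAD. Per kilobase of GENCODE transcript Hist1h2bc stood at 85.3 CPM and Hist1h2ac at 2.67, with mean levels over 6 libraries of 98.6 and 6.62 CPM. Divided by the RefSeq gene span they stood at 11.9 and 13.6, where the span of Hist1h2bc (8282 bases) exceeds its transcript (1156 bases).

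The differences of Hist1h2ac and Hist1h2bc, 0.42 and 0.46, were near the median of the 15 tested Hist1 genes, 0.43. Their likeness is thus not particular to the pair, and whether these genes share their control was not tested. The region between their starts, chosen after these values were seen, is shown, followed by the promoter of Hist1h1c, the most abundant member. Both come from the RefSeq promoter table (GRCm38.p6, another build than the mm9 of the deposited values), which held 53 of the 60 genes, from 250 bases before to 50 bases after the start. Capitals mark 3 motifs searched on both strands: the TATA box as TATAAA, the binding element of NF-Y as CCAAT, and the H1 box of linker histone genes as AAACACA. No match overlaps another in these promoters.
Hist1h2ac, chr13:23683910-23684209, minus strand: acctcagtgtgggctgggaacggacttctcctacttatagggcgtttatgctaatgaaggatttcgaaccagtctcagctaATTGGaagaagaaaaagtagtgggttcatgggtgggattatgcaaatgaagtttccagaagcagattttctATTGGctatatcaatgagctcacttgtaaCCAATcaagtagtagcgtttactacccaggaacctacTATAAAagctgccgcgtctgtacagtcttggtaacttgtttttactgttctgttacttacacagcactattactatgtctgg
Hist1h1c, chr13:23738557-23738856, plus strand: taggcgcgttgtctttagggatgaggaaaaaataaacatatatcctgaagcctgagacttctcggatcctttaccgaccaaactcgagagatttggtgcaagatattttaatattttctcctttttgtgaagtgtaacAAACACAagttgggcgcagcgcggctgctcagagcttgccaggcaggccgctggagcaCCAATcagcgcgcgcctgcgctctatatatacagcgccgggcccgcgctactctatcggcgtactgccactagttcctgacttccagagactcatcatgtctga
TATAAA was in 32 of the 53 promoters (60.4%), against 13.6% of all 32851 promoters of the table. CCAAT was in 44 (83.0%, against 37.4%) and AAACACA in 7 (13.2%, against 7.18%). Those 7 were the H1 genes Hist1h1b, Hist1h1c, Hist1h1d, Hist1h1e and Hist1h1t, with Hist1h2ab and Hist1h2bm. Hist1h1a was the H1 gene without it. These matches describe the letters only.

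None of the 3 tested H3 genes passed in limma (1 at an unadjusted p under 0.05; 0 called by edgeR and 1 by DESeq2), and they differed widely among themselves. Hist1h3d was at 2.18, 2.36 and 1.76 CPM in 5xFAD and 6.01, 11 and 4.64 CPM in Il3-/-5xFAD, or 61, 69 and 66 reads against 179, 309 and 153. The groups stood well apart, with means of 2.10 ± 0.310 and 7.21 ± 3.33 CPM (SD, n = 3). Its log2 difference, 1.34 ± 0.28 (SE), was the largest of the 19 and missed the threshold narrowly (limma adjusted p = 0.0501, edgeR adjusted p = 0.0705, DESeq2 adjusted p = 0.000281). It was 1.03 to 1.57 without single libraries. Hist1h3a was at 1.89, 0.991 and 1.60 CPM against 1.58, 1.49 and 0.273 CPM, with overlap (-0.29 ± 0.34, limma adjusted p = 0.718). Hist2h3c2, of which 63.5% of stretches occur in other transcripts, was at 0.501, 1.5 and 1.12 CPM against 0.504, 1.07 and 1.30 CPM (-0.05 ± 0.32, limma adjusted p = 0.960), with no visible difference. Hist1h3e, below the filter, was at 0.465, 0.342 and 0.239 CPM in 5xFAD and 0.873, 0.781 and 0.909 CPM in Il3-/-5xFAD, without overlap and untested. Of the other untested genes, Hist1h2bj, Hist1h4n and Hist3h2bb-ps were higher in every Il3-/-5xFAD library, and Hist1h2al had 1 read in each 5xFAD library and 0 in the others. No further gene of the 41 untested ones stood apart, and all these rest on few reads. Over all tested genes 9.65% stood wholly higher and 11.5% wholly lower. Those genes had passed the filter, so these are not the shares for genes under it, which were not counted.

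None of the 5 tested H4 genes passed in limma (1 at an unadjusted p under 0.05; 0 called by edgeR and 0 by DESeq2). Hist1h4i was at 11.8, 14.8 and 10.2 CPM in 5xFAD and 20.4, 20.3 and 13 CPM in Il3-/-5xFAD, where replicate 3 lay within the 5xFAD range (log2 difference 0.50 ± 0.20 (SE), limma adjusted p = 0.232). It passed without that library (0.70, limma adjusted p = 0.0473). Hist1h4h was at 3.04, 2.87 and 1.86 CPM against 2.69, 2.10 and 1.88 CPM (-0.15 ± 0.26, limma adjusted p = 0.826). Hist1h4c was at 1.00, 2.12 and 0.798 CPM against 1.65, 1.42 and 1.67 CPM (0.20 ± 0.29, limma adjusted p = 0.784). Hist1h4d (0.33 ± 0.33) and Hist2h4 of the Hist2 cluster (0.38 ± 0.34) overlapped between groups, at limma adjusted p of 0.661 and 0.620. Hist2h4 was at 2.40, 0.957 and 0.399 CPM against 1.65, 2.02 and 1.58 CPM, so that the 5xFAD libraries spanned the whole Il3-/-5xFAD range. Hist4h4 was below the filter, at 0.0798 to 0.376 CPM in 5xFAD and 0 to 0.403 CPM in Il3-/-5xFAD.

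**Figure D4:**
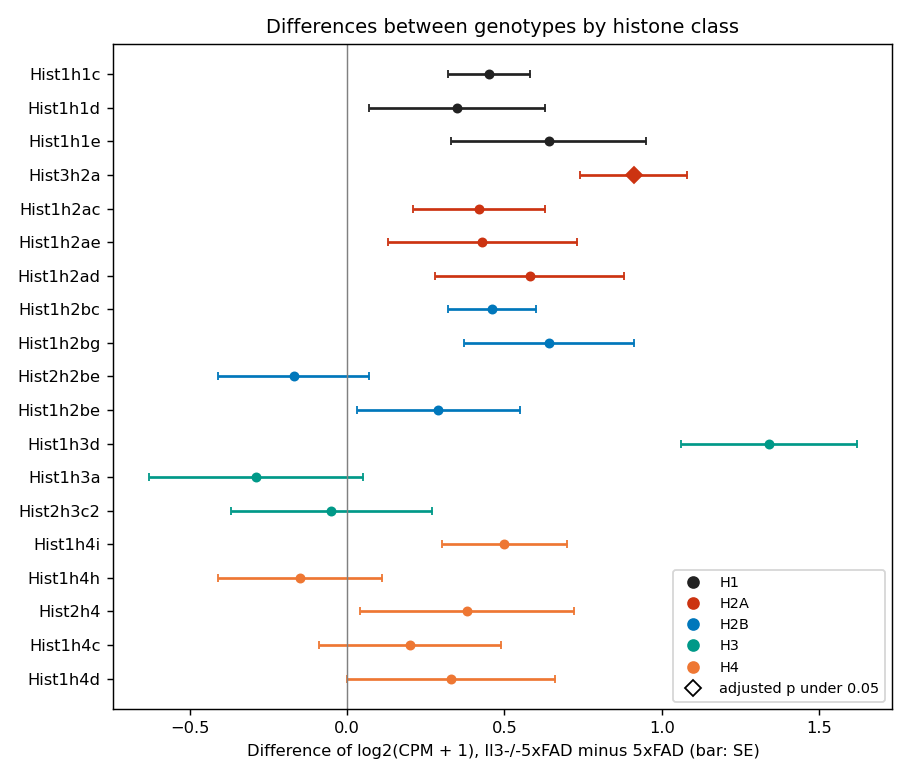
Difference of log2(CPM + 1), Il3-/-5xFAD minus 5xFAD, for the 19 tested genes, ordered and coloured by class, with SE bars; the diamond marks an adjusted p under 0.05. Hist3h2a (0.91) is the only diamond, Hist1h3d (1.34) lies farthest to the right and Hist1h3a (-0.29) farthest to the left.

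By cluster, the sums followed different courses. The 49 Hist1 genes gave 762, 805 and 594 CPM in 5xFAD and 890, 1193 and 893 CPM in Il3-/-5xFAD, 1.38 times as high and without overlap; none of their 15 tested genes passed in limma (5 at an unadjusted p under 0.05, 0 called by edgeR and 3 by DESeq2). The 7 Hist2 genes gave 7.26, 9.12 and 6.75 CPM against 9.23, 7.60 and 6.37 CPM, 1.00 times as high with complete overlap; none of their 3 tested genes passed in limma (0 at an unadjusted p under 0.05, 0 called by edgeR and 0 by DESeq2). The 3 Hist3 genes, almost wholly Hist3h2a, gave 10.7, 8.85 and 10.1 CPM against 23.9, 18.7 and 17.6 CPM, 2.03 times as high. Among the classes, the sums of H1, H2A and H3 did not overlap between groups, while those of H2B and H4 did. Each of these 3 separations rests on 1 gene: the groups overlapped in H1 without Hist1h1c (34.1, 37.6 and 18.2 CPM against 36.9, 60.4 and 26.7 CPM) and in H3 without Hist1h3d (3.40, 3.96 and 3.43 CPM against 4.30, 4.72 and 2.58 CPM), as they did in H2A without Hist3h2a. The Hist1 sums overlapped too without Hist1h1c (159, 189 and 119 CPM against 218, 265 and 173 CPM). Whether clusters or classes differed from each other in their response was not tested.

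**Figure D5:**
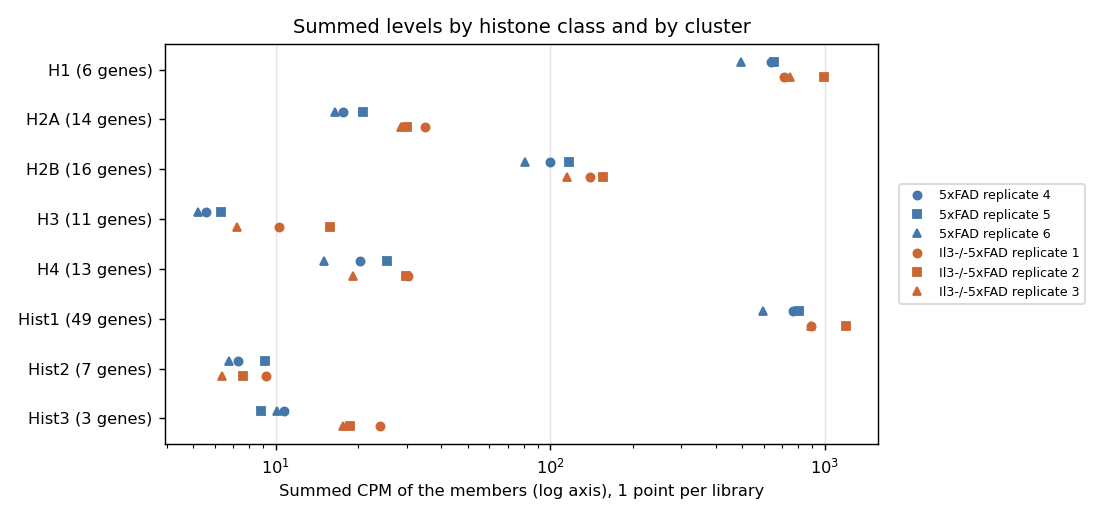
Summed CPM (log axis) over the members of each class and of the clusters Hist1 to Hist3, 1 point per library, blue for 5xFAD and orange for Il3-/-5xFAD. The orange points lie wholly to the right for H1, H2A, H3, Hist1 and Hist3, and the groups overlap for H2B, H4 and Hist2 (6.37 to 9.23 CPM).

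Histone genes outside the clusters, most of which give polyadenylated mRNAs (H2afx is known to give both forms), gave a mixed picture. None of 9 tested genes passed in limma (4 at an unadjusted p under 0.05, 0 called by edgeR and 1 by DESeq2), and the median difference was -0.13. H1f0, the replacement linker histone of resting cells, was at 19.9, 23.1 and 21.8 CPM in 5xFAD and 28.0, 38.3 and 32.1 CPM in Il3-/-5xFAD, without overlap (0.57 ± 0.14 (SE), limma adjusted p = 0.0716). H3f3b, which encodes H3.3, was at 2215 ± 227 and 2726 ± 456 CPM (SD, n = 3; limma adjusted p = 0.298). H2afy, which encodes macroH2A, H2afz, H2afv and H2afj were lower in every Il3-/-5xFAD library, at log2 differences of -0.10, -0.13, -0.37 and -0.39, and none passed.

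The machinery around histone mRNA showed no call. Of 16 tested genes for its transcription, end processing and decay none passed in limma (2 at an unadjusted p under 0.05; 0 called by edgeR and 0 by DESeq2), with a median of 0.02. Slbp, the stem-loop-binding protein gene, was at 48.1, 51.6 and 54.8 CPM in 5xFAD and 48.6, 52.7 and 50.6 CPM in Il3-/-5xFAD (-0.02 ± 0.10 (SE)). Srrt and Upf1, the most abundant of the list, which act in cap-linked processing and in decay, each differed by 0.20 ± 0.09. Of 20 tested histone chaperone genes none passed in limma (5 at an unadjusted p under 0.05; 0 called by edgeR and 1 by DESeq2); Atrx, which helps deposit H3.3, came at 0.37 ± 0.09 with limma adjusted p = 0.0831, and Rbbp4 at -0.02 ± 0.09.

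Genes of DNA synthesis and division were measured beside the histones. None of 28 tested genes passed in limma (1 at an unadjusted p under 0.05; 0 called by edgeR and 0 by DESeq2), with a median of -0.08. Their summed level was 424 to 577 CPM in 5xFAD and 480 to 499 CPM in Il3-/-5xFAD. Mki67, a marker of cycling cells, was at 21.2, 47.2 and 36.1 CPM against 36.1, 28.3 and 29.2 CPM, with overlap. Pcna and Mcm3, the most abundant of the list, differed by 0.08 ± 0.09 and 0.05 ± 0.09. The gene under an unadjusted p of 0.05 was Ccne1, the cyclin E1 gene, at 1.43, 2.02 and 2.47 CPM against 0.638, 0.781 and 0.0606 CPM, without overlap (-1.01 ± 0.31, limma adjusted p = 0.126); it was chosen after its values were seen.

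Small RNAs that lack a polyA tail were looked at beside the histones. They are shorter than histone mRNAs, so loss by size and loss by the selection cannot be told apart. Their level thus does not show how much histone mRNA without a tail was let through. Only 1 of 30 such small nuclear and nucleolar RNAs passed the filter, and their sum was 1.43, 13.6 and 1.25 CPM in 5xFAD and 6.28, 9.66 and 0.970 CPM in Il3-/-5xFAD. Scarna2, the tested one, was at 1.18, 8.85 and 0.665 CPM against 4.33, 7.49 and 0.303 CPM. 5xFAD replicate 5 and Il3-/-5xFAD replicates 1 and 2 were the high libraries, and Il3-/-5xFAD replicate 3 was the lowest; these same 3 libraries had the most histone cluster genes with a read and replicate 3 the fewest, and the part of this in the histone values was not tested. Tested genes with a GENCODE transcript were also split by its length into 5 groups of like size. Of the 19 histone genes, 14 were in the shortest, whose 2356 genes had a median difference of -0.14. With each library's trend with length removed, the median of the 19 was 0.50 and Hist3h2a was called. The part of transcript length in the histone values was not tested.

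Markers of other cells moved with the groups. The microglial markers stood at a summed 36942 to 38875 CPM in 5xFAD and 37933 to 41734 CPM in Il3-/-5xFAD, and none of 10 passed in limma (2 at an unadjusted p under 0.05; 0 called by edgeR and 0 by DESeq2). Lower in Il3-/-5xFAD were neutrophil genes (5 of 13 fell; sums of 1921 to 3993 against 911 to 1471 CPM), monocyte genes (3 of 8 fell; 214 to 333 against 104 to 206 CPM), T and NK cell genes (3 of 12 fell; 128 to 231 against 70.2 to 86.1 CPM) and choroid plexus genes (2 of 3 fell; 176 to 506 against 60.2 to 127 CPM). Of S100a8, Ly6c2, Cd3d and Ttr, each of which fell, the limma log2 differences were -2.14, -1.73, -1.46 and -1.76. By edgeR 0 neutrophil, 2 monocyte, 2 T and NK cell and 0 choroid plexus genes were called, and by DESeq2 7, 5, 7 and 1. Of the 4 genes named, edgeR called Ly6c2 (adjusted p = 0.0301) and not S100a8, Cd3d or Ttr (adjusted p of 0.0705, 0.0670 and 0.0664). Every gene of the deposited values had a read in some library, so a marker without reads would be missing from these lists. The monocyte and erythroid lists held 9 and 5 genes there, fewer than planned. The part of the markers in the histone values was not tested. In such sorted pools a change in the share of a cell type and a change in RNA per cell cannot be told apart.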

How the data were processed

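RNA-seq of 6 pools of sorted cells was analysed from 1 table of CPM values deposited by the authors, with 1000000 per column. STAR, HTSeq, edgeR and mm9 are named, per the submitters' processing notes, while versions, annotation, counting mode and filters are not stated in them. Groups and replicate numbers came from the sample titles. The deposited CPM were whole multiples of 1 read (100% of values, tolerance 0.01 reads), so reads were recovered. No 2 libraries of a group agree within sampling noise (the smallest chi-square over genes, per degree of freedom, was 23.4).

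Genes reaching 1 CPM in 3 or more of 6 libraries were tested two-sided with limma 3.58.1 in R 4.3.3 (eBayes, trend on) using log2(CPM + 1), which understates changes of low genes. P-values were adjusted by Benjamini-Hochberg over every tested gene. The limma, edgeR 4.0.16 and DESeq2 1.42.0 steps were tested on simulated reads. The alternatives changed the pseudocount (0.25 or 5), the filter (none, or a mean of 5 CPM or more), the scaling (median ratio) and the variance trend (off), or were removal of the length trend (lowess, span 0.3), edgeR with TMM and DESeq2 on recovered reads, and leaving out each library, with the tested genes kept. Class and cluster sums are descriptions.

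Every tested member is named, with values for each library where it passed, lay outside Hist1, was among the 3 most abundant of its class, or stood apart at 5 CPM or more; other members' values were chosen after they were seen. Of the lists of related genes and cell markers, up to 3 called genes or, with none called, the 2 most abundant were due, of which 1 is not reported here; others named were chosen after their values were seen. B cell, erythroid, border macrophage, neuron, astrocyte, oligodendrocyte and endothelial lists are given with the closing observations. The members and lists were chosen with earlier results of these data known. Gene order, names and promoters came from RefSeq (GRCm38.p6; all 60 genes matched by an older symbol) and transcripts from GENCODE M21. Figures were drawn with matplotlib 3.10.9.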

Additional observations from a re-analysis of the deposited data

How the results depend on the processing

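The number of histone cluster genes called, 1 by limma, was 0 with no filter and without the variance trend, 4 by DESeq2, and 0 to 3 when single libraries were left out. Without Il3-/-5xFAD replicate 3 it was 3 (Hist3h2a, Hist1h3d and Hist1h4i), and it was 0 when replicate 5 or 6 of 5xFAD, or replicate 1 or 2 of Il3-/-5xFAD, was left out. Over all tested genes the count, 105 by limma, was 8 with no filter, 68 with a mean of at least 5 CPM, 65 with median-ratio rescaling, 10 without the variance trend, 60 by edgeR, 605 by DESeq2, 60 with the length trend removed, and 15 to 605 without single libraries. Hist3h2a passed in 9 of 15 alternatives, with adjusted p from 8.2e-05 to 0.205 and log2 differences from 0.71 to 0.99. The median of the tested histone genes, 0.42, was 0.20 with a pseudocount of 5, which shrinks low genes by construction. With the length trend removed, Hist1h3a turned to 0.02, Hist1h4h to 0.19 and Hist2h3c2 to 0.14. Without single libraries Hist1h3a ran from -0.47 to 0.04 and Hist2h3c2 from -0.26 to 0.13. The cause of these changes was not tested. Of 274 values of single genes under alternatives, 257 kept direction and side of the threshold. Most of these belong to genes that had no call to lose, so this count does not describe the call of Hist3h2a. No paired analysis was possible because the groups share no replicate number. Genes under the filter rest on few reads, and what size of difference these could show was not tested.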

Other observations

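Other cell markers gave few calls. B cell genes summed to 302 to 369 CPM in 5xFAD and 303 to 328 CPM in Il3-/-5xFAD, nearly all of it Ighm (314 and 302 CPM), with no call among 2 tested genes. The erythroid genes, of which none was tested, summed to 0.215 to 1.06 CPM and 0.101 to 2.15 CPM. Border macrophage genes summed to 112 to 137 CPM and 85.9 to 119 CPM, neuronal genes to 4.72 to 9.81 CPM and 3.44 to 12.5 CPM, astrocyte genes to 141 to 170 CPM and 130 to 150 CPM, oligodendrocyte genes to 193 to 210 CPM and 161 to 177 CPM, and endothelial genes to 58.1 to 76.1 CPM and 54.0 to 55.7 CPM. None of these lists held a gene called by limma, while 3 of 7, 0 of 2, 2 of 4, 3 of 5 and 2 of 5 tested genes had an unadjusted p under 0.05. By edgeR none was called in any of the 5 lists, and DESeq2 called 1 gene each of the astrocyte, oligodendrocyte and endothelial lists.

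Elane and Mpo, granule genes of neutrophil precursors, were lower in every Il3-/-5xFAD library. Elane was at 1.18, 17.8 and 4.15 CPM in 5xFAD against 0.336, 0.107 and 0.0303 CPM, and Mpo at 2.29, 37.2 and 6.54 CPM against 1.34, 0.0355 and 0.394 CPM, so that 5xFAD replicate 5 carried most of the level of its group. Neither passed in limma (adjusted p of 0.0746 and 0.0767) or edgeR (0.0510 and 0.0801), and both passed in DESeq2 (0.00158 and 0.0340). Abundant genes of the lists without a call differed by 0.12 (Csf1r), 0.06 (Cd79b), -0.19 (Mrc1), -0.73 (Clec12a), -0.40 (Snap25), -0.27 (Meg3), -1.45 (Gfap), 0.03 (Slc1a3), -0.41 (Mbp), -0.07 (Cnp), 0.22 (Pecam1) and -1.42 (Flt1) on the log2 scale.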
